A study of Saccharomyces cerevisiae with 32 samples.

Results

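Many reading frames of the budding yeast Saccharomyces cerevisiae are known only by a systematic name, which gives the chromosome, the arm, a running number and the strand (W or C) but no symbol. The set described here holds the 404 unnamed reading frames whose deposited values varied over the time course of the control strain (WT). They were chosen by the deposited values of that strain. The mean of the 2 WT arrays had to span 1.0 log2 units or more between its highest and lowest of 8 times, with no WT value missing. Of 977 unnamed frames in the deposited table, 812 had all WT values, and 404 of these (49.8%) were in range, against 2182 of 4943 genes with a symbol (44.1%). A frame counted as unnamed when it had no symbol in RefSeq's table for the assembly R64. That table lists 233 of the 404 frames by locus tag and does not list the other 171. Of the 404 frames 1, Q0010, is mitochondrial.

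Cells of both strains were held in G1 for 2 hours with alpha-factor, the mating pheromone that arrests a cells, then released, and samples were taken from 0 to 105 min in steps of 15 min. The WT strain YBL320 carried epitope tags on 4 transcription factors, as the alleles HCM1-3HA and TOS4-3FLAG together with YOX1-3V5 and YHP1-13MYC. The 4P strain YBL289 carried the same tags on mutant forms, hcm1-15A-3HA and tos4-9A-3FLAG with, in addition, yox1-9A-3V5 and also yhp1-13A-13MYC. Its submitters call it a phosphomutant. Both strains were read against RNA of the untagged strain MW836a (HCM1 TOS4 YOX1 YHP1) in mid-log growth. Each genotype and time had 2 arrays, with the dyes swapped between them, so that 32 arrays made up 4 time courses. Every level below is the log2 of synchronised over reference RNA, with n = 2 arrays per genotype and time. Nothing in the labels says that the 2 arrays came from separate cultures, so p values measure the spread between these samples.

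In synchronised yeast, transcripts follow each other in waves. Genes of the mating response are on during the pheromone arrest, genes driven by the factors MBF and SBF come on at the start of S phase, histone genes follow, then genes of mitosis driven by Mcm1 with Fkh2, then genes switched on by Mcm1 at the end of mitosis. A frame with no known product can be placed in such a wave by when its RNA is highest. Since a bulk sample was measured, fewer cells with a transcript and less RNA per cell cannot be told apart.

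The share of spots well above background ran from 94.8% to 99.6% by array, and the median signal was 6.67 times background on the dimmest array (WT at 15 min, replicate 2) and 81.5 times on the brightest. Replicates correlated at r = 0.586 (4P at 105 min) to 0.918 (4P at 45 min) over genes. The 4P array at 105 min of replicate 1 had 1761 spots marked as outliers and that at 15 min had 526, and these 2 arrays made up slide 1 of 5. All 404 frames were well above background on all 16 WT arrays and 399 of them on all 16 4P arrays, with at least 1 of 2 spots sufficing. The choice asked for a value on every WT array, which favours this. The reference RNA was well above background on all 32 arrays for 389 frames. As a check of the labelled a cells, 7 of 7 a cell genes changed over time in 4P, and 0 of 3 alpha cell genes did. Between the times of the WT extremes, 7 of 7 a cell genes and 1 of 2 alpha cell genes were higher at the WT maximum in 4P. Change over time does not by itself give the mating type.

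The time of the WT maximum was uneven over the 8 samples. The 15 min sample held 154 of the 404 maxima (38.1%), against 20.4% of the named genes in range. The 75 min sample held 75 (18.6%), against 27.4% of the named genes in range. The 0 min sample held 48 (11.9% against 9.1%) and the 45 min sample 43 (10.6% against 15.2%). At 90 min there were 35 (8.7% against 15.2%). The 30 min sample held 30, the 60 min sample 15 and the 105 min sample 4. Frames that R64 does not list made up 55.2% of the 15 min group and 22.7% of the 75 min group. The median WT span was 1.34 over the 404 frames and the largest was 3.91, in YDR124W. These numbers describe the choice and carry no test. In 173 frames (42.8%) both WT replicates had their maximum at the same time, and in 269 each replicate alone spanned 1.0 or more.

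**Figure D1:**
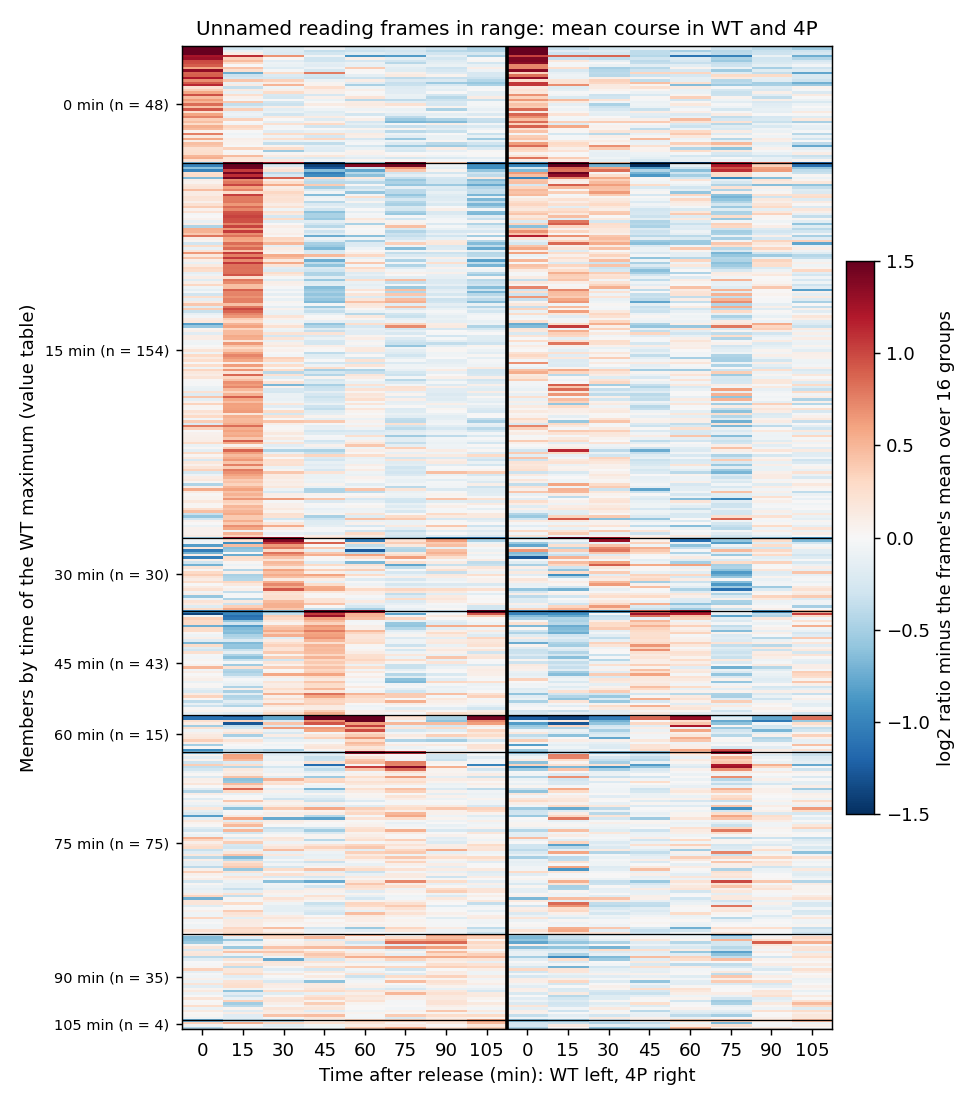
Mean course of the 404 frames in WT (left 8 columns) and 4P (right 8 columns), rows grouped by the time of the WT maximum and ordered by WT span, coloured by the loess-normalised log2 ratio minus the frame's mean over 16 groups. The 0 min group is high at 0 min in both strains, the 15 min group is dark at 15 min in WT and paler in 4P, and the 75 and 90 min groups show little colour in either.

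The 4P arrays took no part in the choice, so they allow a test. Over the 8 times, 179 of the 404 frames (44.3%) changed in 4P by limma's moderated F test at an adjusted p under 0.05, beside 40.3% of all 6205 genes tested. That share is close to the share of the whole array. Between the time of the WT maximum and that of the WT minimum, 164 frames (40.6%) were higher at the former in 4P by limma's contrast, beside 34.8% of all 5774 genes with such times. Only 1 frame, YGR051C, was lower there, beside 0.468% of all genes. The median 4P change was 0.45, against 0.77 in WT, which the choice of members sets, and 0.33 in 4P over all genes. After the normalisation used for the tests, described further on, 161 frames still spanned 1.0 in WT. Of these, 103 (64.0%) were higher at the WT maximum in 4P, and of the other 243 frames 61 (25.1%) were. The matching share of all genes with such a span is not given here, so the 64.0% cannot be called particular to the members. Both 4P replicates moved in the WT direction in 304 frames (75.6% of those with all values) and against it in 34 (8.46%), beside 71.8% and 8.63% of all genes.

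The counts are given apart for frames with an entry in R64 and frames without one. Of the listed frames 127 of 233 (54.5%) changed over time in 4P and 115 (49.4%) were higher at the WT maximum. Of the unlisted frames 52 of 171 (30.4%) changed and 49 (28.7%) were higher, and the named genes in range stood at 61.0% and 52.4%. The brightness of the spots moved with this split, since the median frame lay at percentile 24.8 of brightness among listed and 16.3 among unlisted members. Its part in the difference was not tested. The 408 unnamed frames below the range changed over time in 4P in 15.9% of cases.

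**Figure D2:**
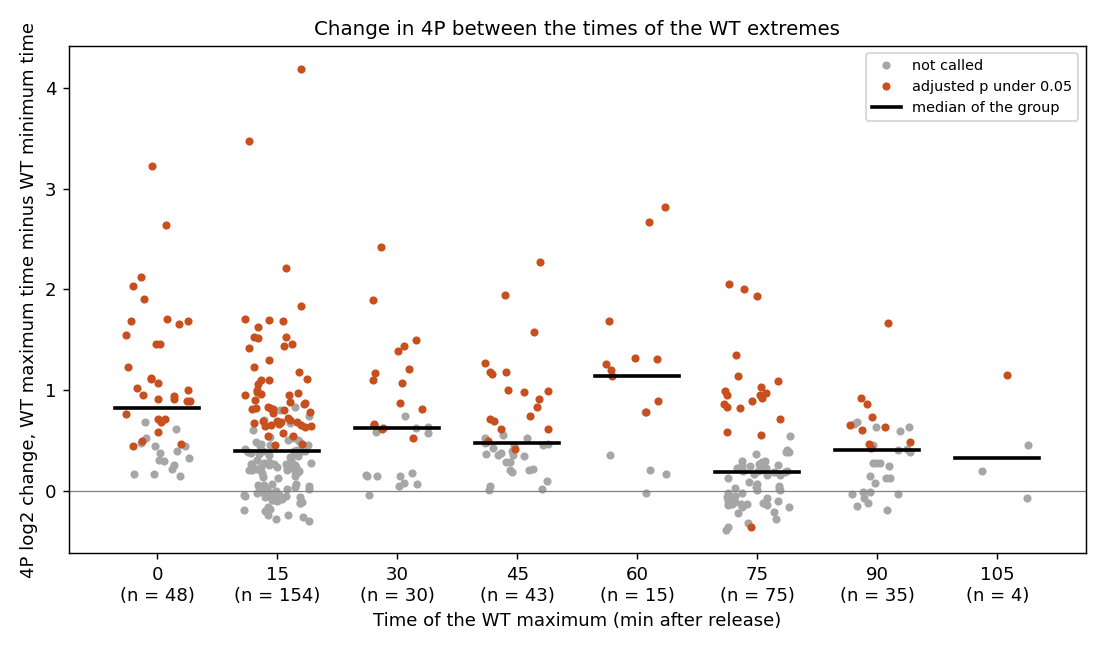
Change of each of the 404 frames in 4P (vertical axis, log2, level at the time of the WT maximum minus level at the time of the WT minimum) by the time of its WT maximum, with orange points for an adjusted p under 0.05 and a black bar for the group's median. Medians run from 0.19 in the 75 min group to 1.14 in the 60 min group, and 1 orange point lies below 0.

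Frames highest in the arrest kept that pattern in 4P. Of the 48 frames with a WT maximum at 0 min, all had a positive 4P change, as did 91.1% of all genes with a WT maximum at that time. The change passed in 32 (66.7%), beside 40.0% of all genes and 62.3% of the named genes in range with that time. In 38 of them the 4P maximum was at 0 min too. YDR124W, whose expression is known to be induced by alpha-factor, stood in WT at 3.34 and 3.83 at 0 min and at 0.19 and 0.05 at 90 min. In 4P it stood at 3.93 and 3.07 at 0 min and at 0.21 and 0.34 at 90 min. Over the 16 arrays of a genotype the lowest, median and highest values were 0.00, 0.27 and 3.83 in WT and 0.13, 0.45 and 3.93 in 4P. Only the 0 min arrays were high, in both strains, and their ranges overlapped. Its 4P change was 3.23 ± 0.21 (SE, adjusted p = 4.91e-11, limma).

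YOR343C fell from 2.76 and 1.92 at 0 min to 0.28 and 0.17 at 75 min in 4P, a change of 2.12 ± 0.20 (adjusted p = 2.71e-08). In WT the same times read 2.64 and 2.55, then 0.31 and 0.28. YML047W-A, not listed in R64, read 2.99 and 2.58 at 0 min and 0.13 and 0.16 at 105 min in 4P, with a change of 2.64 ± 0.18 (adjusted p = 1.37e-10). Its WT arrays read 2.65 and 2.51, then -0.09 and 0.11. For these 3 frames the 0 min arrays of 4P and WT lay above every later array of either strain.

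In the 0 min group 81 pairs joined a frame with a named gene of the same or next systematic number. Such genes are called neighbours of the frame, or next to it, by number alone, and overlap was not checked. Of these pairs, 8 (9.9%) correlated above 0.8 over the 16 4P arrays. The share was 4.7% for named genes in range with a WT maximum at 0 min. These 8 pairs were taken for their correlation after it was seen, and carry no test. YML047W-A is next to PRM6, a pheromone-regulated gene, and the pair correlated at r = 0.98. Its other neighbour PRP39 correlated with it at r = 0.92, and YFR056C with IRC7 at r = 0.92. YDR124W is next to ECM18 (r = 0.99), which changed by 2.84 in 4P between the same times. YGL052W is next to PRM8 (r = 0.96), YNL146W next to the a-factor gene MFA2 (r = 0.89), YJL169W next to ASG7 (r = 0.88) and YJL107C next to PRM10 (r = 0.86). In each of these 4 pairs both the frame and the named gene had their WT maximum at 0 min. For comparison, all 16 genes of a pheromone response list (such as FUS1 and FAR1) were higher at their WT maximum in 4P, with a median change of 4.62. Of the other 4P changes in the group, YGL230C reached 2.03 ± 0.19 (adjusted p = 1.39e-08) and YGL052W 1.91 ± 0.17 (adjusted p = 6.53e-09).

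**Figure D3:**
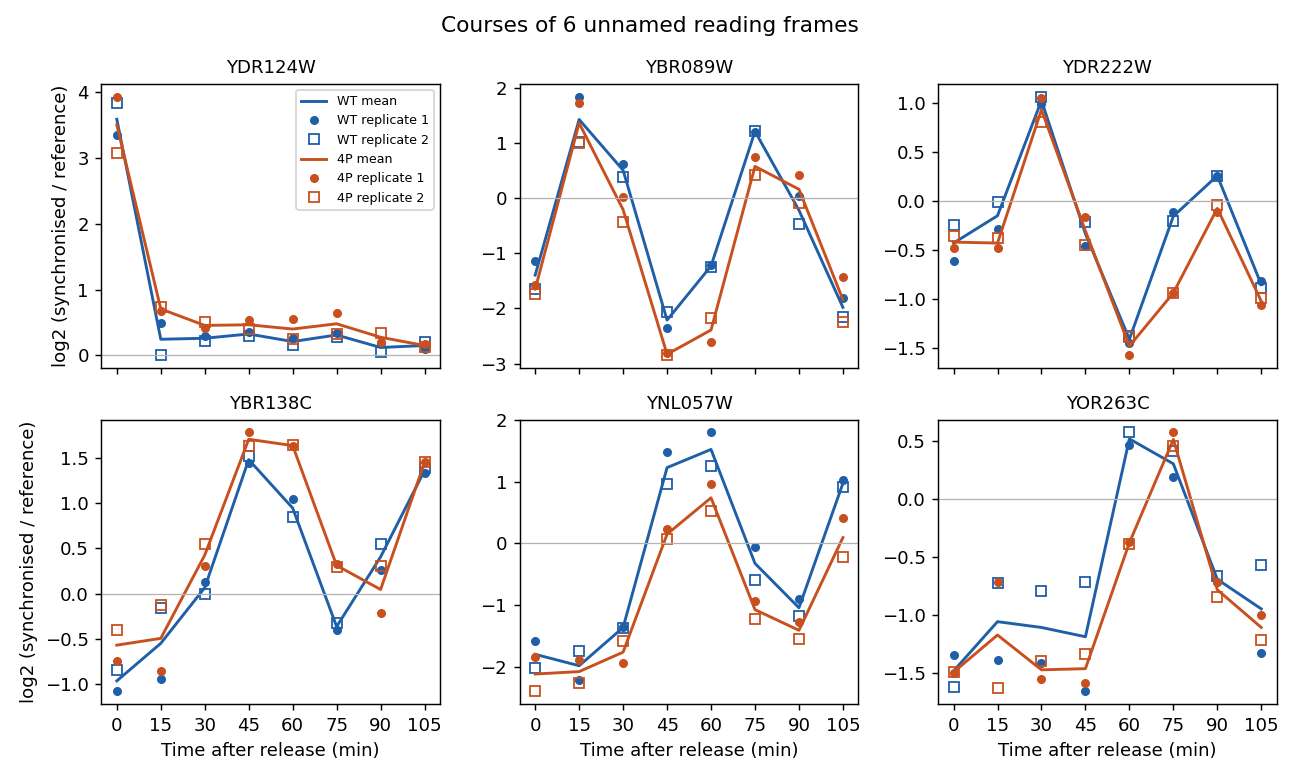
Courses of 6 frames in WT (blue) and 4P (orange), with lines for means and symbols for the 2 replicates of each, as loess-normalised log2 ratio against minutes after release. YDR124W is high at 0 min alone, YBR089W peaks at 15 and 75 min in both strains, and YOR263C is highest at 60 min in WT and 75 min in 4P.

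The 15 min group was the largest and held the frames with the widest 4P change. YBR089W, which R64 does not list, read 1.73 and 0.99 at 15 min and -2.81 and -2.85 at 45 min in 4P. In WT it read 1.84 and 1.01, then -2.36 and -2.06. Its 4P change of 4.19 ± 0.30 (adjusted p = 2.06e-10) was the largest of all members. A second rise followed at 75 min, to 1.2 and 1.22 in WT and to 0.74 and 0.41 in 4P, and at this time the strains did not overlap. By systematic number YBR089W is next to POL30, the gene of the sliding clamp of DNA replication, on the opposite strand by its letter. Whether they overlap was not checked. The pair correlated at r = 0.97 over 4P arrays and POL30 changed by 3.77 between the same times.

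YBR071W had its WT maximum at 15 min as well. It read 1.31 and 1.36 there and -2.42 and -1.86 at 45 min in 4P, a change of 3.47 ± 0.22 (adjusted p = 2.96e-11), against 1.72 and 1.35, then -2.24 and -1.53, in WT. At 60 min WT was already at 0.81 and 0.95 while 4P was at -0.73 and -0.52, and at 75 min 4P reached 0.63 and 0.79. The single-time differences use the WT arrays that chose the frame and were not tested. YGR151C, unlisted, read 0.88 and 1.6 at 15 min and -0.33 and -0.59 at 45 min in 4P (change 1.70 ± 0.21, adjusted p = 2.15e-06). Its highest 4P pair was at 75 min, at 1.23 and 1.44. It is next to RSR1, the gene of a GTPase that places the bud, with r = 0.95 over 4P arrays, and YGR153W on the other side of RSR1 correlated with it at r = 0.90.

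Of the 154 frames of the 15 min group 57 (37.0%) were higher at the WT maximum in 4P, beside 39.1% of all genes and 59.0% of the named genes in range with a WT maximum at 15 min. The 4P maximum fell at 0 min in 44 frames, at 15 min in 47 and at 30 min in 26. The group's median at 15 min was 0.36 and 0.78 on the 2 WT arrays and 0.08 and 0.24 on the 2 4P arrays. The higher WT value came from replicate 2, which is the dimmest array of the series, and the lowest 4P value from slide 1. Their part in the difference was not tested. Listed frames of the group passed in 33 of 69 cases and unlisted ones in 24 of 85. In an MBF list that includes CLB6 and RNR1, 16 of 18 genes were higher at their WT maximum in 4P, with a median change of 2.33, and in a stress list that includes HSP12 all 12 were.

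YHR138C (2.21 ± 0.23, adjusted p = 9.28e-08) and YOR289W (1.84 ± 0.18, adjusted p = 3.43e-08) were among the other frames of the 15 min group that passed. YOL150C changed by 1.71 ± 0.40 (adjusted p = 0.00199). It is next to GRE2, a reductase gene induced by stress (r = 0.96), which changed by 2.00 between the same times. YMR173W-A is next to the DNA damage-responsive gene DDR48 (r = 0.94) and changed by 1.53 ± 0.21. YDL011C is next to the glutaredoxin gene GRX6 (r = 0.96) and changed by 1.63 ± 0.24. All 3 frames are unlisted.

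The 30 min group, which falls in S phase, had 30 members. Of these 16 (53.3%) were higher at the WT maximum in 4P, beside 42.8% of all genes and 73.9% of the named genes in range with that time. YDR222W read 1.06 and 0.81 at 30 min and -1.58 and -1.39 at 60 min in 4P, a change of 2.42 ± 0.14 (adjusted p = 1.11e-11). The WT arrays read 0.99 and 1.07, then -1.45 and -1.38, so the strains overlapped at both times. At 75 min they did not, with -0.11 and -0.20 in WT and -0.94 and -0.94 in 4P. YML131W, a protein similar to dehydrogenases and known to be induced by stress, read 2.54 and 2.58 at 30 min and 0.64 and 0.68 at 90 min in 4P (1.90 ± 0.20, adjusted p = 1.50e-07). After loess its 4P maximum was at 15 min, at 3.12 and 3.00. In WT the levels at 15 min (2.90 and 2.32) and 30 min (2.65 and 2.57) were about alike.

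YLR379W was the exception among the 3 widest frames of that time. It read 1.12 and 0.51 at 30 min and -0.65 and -1.69 at 15 min in WT. In 4P it read -0.25 and -0.45 at 30 min and -0.03 and -1.03 at 15 min, a change of 0.18 ± 0.37 that did not pass (adjusted p = 0.738). Over the 4P arrays its lowest, median and highest values were -1.09, -0.56 and 0.23, and all 16 lay below both WT values at 30 min. It is next to SEC61, the gene of the channel through which proteins enter the endoplasmic reticulum, and the pair correlated at r = 0.90 over 4P arrays. Histone genes, the best known S phase transcripts, were higher at their WT maximum in 4P in 7 of 7 cases.

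At 45 min, when mitotic genes rise, 43 frames had their WT maximum. All 43 had a positive 4P change, as did 93.9% of all genes with that time. The change passed in 19 (44.2%), beside 47.9% of all genes and 72.5% of the named genes in range. YBR138C read 1.78 and 1.63 at 45 min and -0.74 and -0.40 at 0 min in 4P (2.27 ± 0.23, adjusted p = 4.38e-08). WT read 1.44 and 1.52, then -1.08 and -0.85, so both 4P pairs lay above the WT pairs. At 60 min 4P was still at 1.63 and 1.64 while WT was at 1.04 and 0.85. YML119W, described as a potential substrate of the kinase Cdc28, read 0.61 and 0.61 at 45 min and -1.29 and -1.39 at 15 min in 4P (1.95 ± 0.16, adjusted p = 2.53e-09). WT read 1.29 and 1.30 at 45 min, above 4P. At 105 min the gap was wider, with 1.07 and 1.36 in WT and 0.03 and 0.25 in 4P.

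YNL190W, a cell wall protein, read 0.55 and 0.84 at 45 min and -0.82 and -0.96 at 15 min in 4P (1.58 ± 0.35, adjusted p = 0.00128). The WT replicates were far apart for it, at 1.47 and 0.85, then -0.73 and -1.81. In a list of the CLB2 cluster, which holds CLB1, SWI5 and CDC5, all 14 genes with WT values were higher at their WT maximum in 4P, with a median change of 2.24. Of the 45 min group YBL070C and YDL062W ran with a neighbour over 4P arrays, YBL070C with AST1 (r = 0.95) and YDL062W with SYO1 (r = 0.86).

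The 60 min group was small, with 15 frames, and 10 of them (66.7%) were higher at the WT maximum in 4P, beside 49.6% of all genes and 89.2% of the named genes in range with that time. Its widest members are neighbours of each other, YNL057W and YNL058C. YNL057W, unlisted, read 0.96 and 0.52 at 60 min and -1.90 and -2.26 at 15 min in 4P (2.82 ± 0.27, adjusted p = 2.22e-08). WT read 1.80 and 1.25, then -2.22 and -1.75, so that 4P was lower at 60 min and overlapped WT at 15 min. At 45 min WT stood at 1.49 and 0.97 and 4P at 0.23 and 0.07. YNL058C ran the same way, with 1.18 and 0.62 at 60 min and -1.72 and -1.83 at 15 min in 4P (2.67 ± 0.28, adjusted p = 1.1e-07) and 1.59 and 1.2, then -1.99 and -1.03, in WT.

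YHL026C was lower in 4P throughout its rise. It read -0.02 and -0.24 at 60 min and -1.30 and -1.61 at 90 min in 4P (1.32 ± 0.25, adjusted p = 0.000245). WT read 1.43 and 1.06, then -0.93 and -1.05. At 105 min, WT read 0.63 and 0.06 and 4P -1.08 and -0.82. Mcm1 binds the early cell cycle box, and Yox1 and Yhp1 are known to repress genes with it. Such genes were higher at their WT maximum in 4P in 10 of 10 cases, with a median change of 1.86. FAR1, on this list too, had its WT maximum at 0 min. The mean of the list was highest at 60 min in WT (0.74) and at 75 min in 4P (0.40), a difference that was not tested.

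Many maxima of the 75 and 90 min groups depend on the normalisation. After background correction and loess within each array, 161 of the 404 frames (39.9%) still spanned 1.0 in WT, and 291 kept the time of their maximum. Of the 75 min group 20 of 75 kept it and of the 90 min group 7 of 35, while 45 of 48 did in the 0 min group and 148 of 154 in the 15 min group. In the deposited table the median of the 75 min group was 0.94 on the WT array at 75 min of replicate 2 and -0.98 on that at 90 min of replicate 2. On the replicate 1 arrays of the same times it was 0.53 and -0.01. After loess all 4 medians lay between -0.03 and 0.16.

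The 90 min group was the mirror image, with deposited medians of -0.58 and 0.58 on the WT arrays at 75 and 90 min of replicate 2 and -0.11 and 0.06 after loess. On the replicate 1 arrays its deposited medians were -0.89 and 0.13. On the replicate 2 arrays of these times the deposited ratio ran with the brightness of the spot, at a Spearman rho over probes of -0.16 at 75 min and 0.16 at 90 min, the lowest and highest values of the 32 arrays. On the replicate 1 arrays rho was 0.14 at 75 min, opposite in sign to replicate 2, and -0.02 at 90 min. The deposited median of each group at 75 min had the same sign in both replicates, which the choice of frames by the mean of these arrays favours. After loess rho was 0.01 and -0.01 on the replicate 2 arrays. The median brightness percentile was 18.0 for the 75 min members and 41.1 for the 90 min members. It was 19.9 over all members and 10.4 for the 0 min members, the lowest of the 8 groups. The part of brightness in the choice of these frames was not tested.

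**Figure D4:**
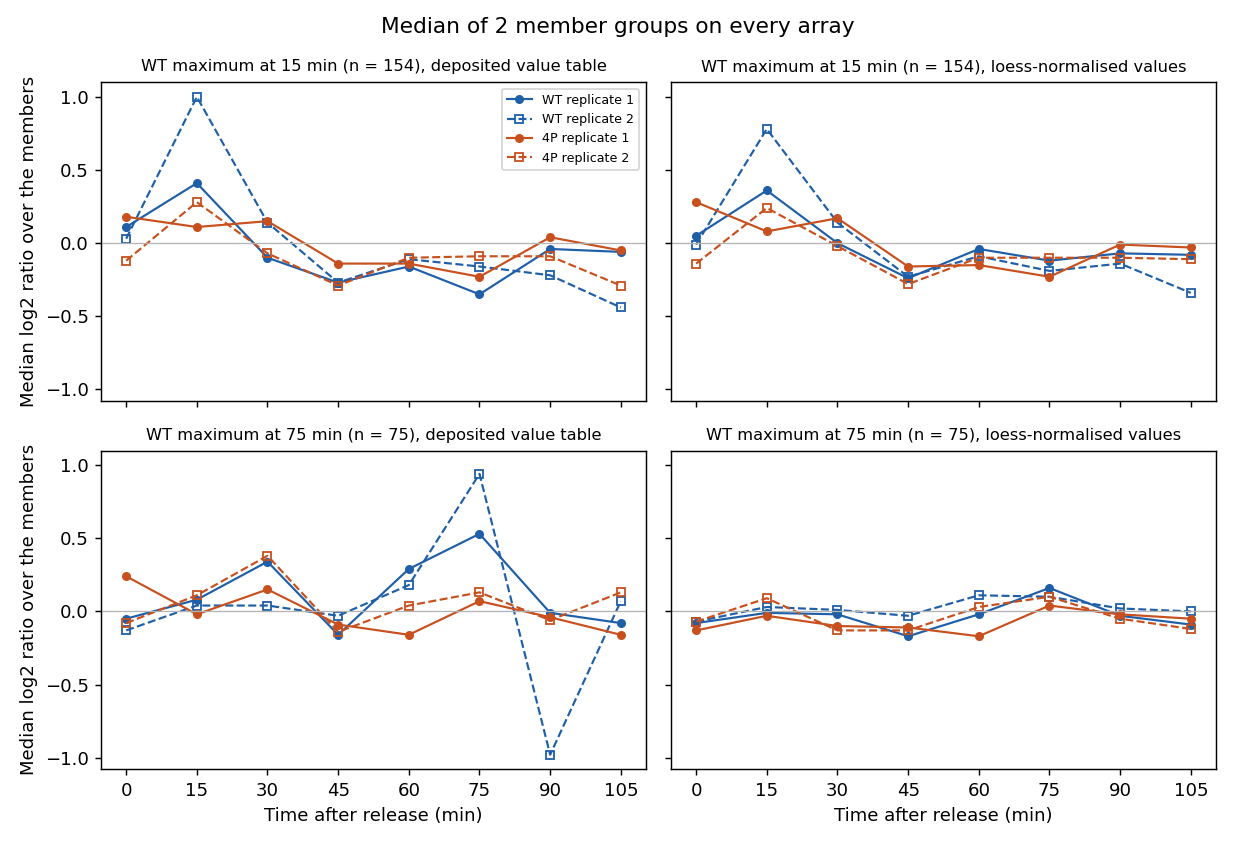
Median log2 ratio of the 15 min group (top) and the 75 min group (bottom) on each of the 32 arrays against minutes after release, in the deposited values (left) and after loess (right), with WT in blue, 4P in orange, and filled and open symbols for replicates 1 and 2. The 15 min peak of WT remains after loess, at 0.36 and 0.78, while the WT swing from 0.94 to -0.98 in replicate 2 of the 75 min group is 0.10 and 0.02 there.

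Of the 75 min group 19 frames (25.3%) were higher at the WT maximum in 4P, beside 28% of all genes and 35% of the named genes in range with that time. YOR263C, unlisted, read 0.57 and 0.45 at 75 min and -1.5 and -1.49 at 0 min in 4P (2.00 ± 0.30, adjusted p = 1.35e-05). After loess its WT maximum was at 60 min, at 0.46 and 0.57, where 4P was at -0.37 and -0.39. It is next to DSE3, a gene known for its expression in daughter cells, with r = 0.94 over 4P arrays and r = 0.97 over WT arrays, and DSE3 changed by 2.90 between the same times.

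The other wide members of the 75 min group did not keep their WT span. YJR149W spanned 2.21 in the deposited WT values, where its WT array at 90 min of replicate 2 read -1.63. After loess that array read 0.36 and the WT maximum was at 15 min, at 1.42 and 0.76. Its 4P change between 75 and 90 min was 0.29 ± 0.20 (adjusted p = 0.275), and its 4P maximum was also at 15 min, at 1.04 and 1.44. YHL049C, a frame of a subtelomeric repeat, spanned 2.06, with -2.87 on the same array and -0.83 after loess. Its 4P change of 0.58 ± 0.21 passed (adjusted p = 0.0387). The call was lost without any 1 of the 4P arrays at 75 and 90 min or that at 15 min of replicate 2, with an adjusted p of up to 0.127.

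Other 75 min frames kept theirs. YJL218W read its maximum at 75 min in both strains after loess and changed by 2.05 ± 0.16 in 4P (adjusted p = 1.21e-09). YNL046W did so too, with a 4P change of 1.94 ± 0.16 (adjusted p = 3.40e-09), and YLR257W changed by 1.35 ± 0.19 (adjusted p = 1.07e-05). These 3 are among the largest 4P changes of the group and were picked for their size. Among genes driven by SBF, such as CLN2 and HO, 13 of 14 were higher at their WT maximum in 4P, with a median change of 2.37. The mean of that list was highest at 75 min in WT (1.13) and at 90 min in 4P (0.84), a difference that was not tested.

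Of the 90 min group 10 of 35 frames (28.6%) passed, beside 15.4% of all genes and 27.4% of the named genes in range with that time. YER152C, an enzyme known to have aminotransferase activity, read -0.20 and 0.03 at 90 min and -1.0 and -0.89 at 0 min in 4P (0.86 ± 0.23, adjusted p = 0.00541), against 0.10 and 0.34, then -0.73 and -1.21, in WT. YGL193C, a haploid-specific transcript, read -0.49 and -0.52, then -1.35 and -1.12, at the same times in 4P (0.73 ± 0.19, adjusted p = 0.00442). In WT it read -0.03 and -0.17, then -1.30 and -1.11. Its neighbour IME4, the gene of an RNA methyltransferase, ran the other way, at r = -0.59 over 4P arrays and a 4P change of -2.51 between the same times. YLR162W read -1.70 and -2.04 at 90 min and -2.92 and -2.08 at 75 min in 4P, and its change of 0.63 ± 0.41 did not pass (adjusted p = 0.254). YAR068W had the largest 4P change of the group, 1.67 ± 0.23 (adjusted p = 6.36e-06).

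Only 4 frames had their WT maximum at 105 min and 1 of them (25.0%) passed, beside 34.6% of all genes and 70.7% of the named genes in range with that time. YLR112W climbed over the course, from -1.05 and -1.14 at 0 min to -0.06 and 0.17 at 105 min in 4P (1.15 ± 0.13, adjusted p = 5.50e-07) and from -1.10 and -1.33 to 0.14 and 0.13 in WT. YLR282C changed by 0.20 ± 0.17 (adjusted p = 0.381) and Q0010 by -0.07 ± 0.26 (adjusted p = 0.853) in 4P. Of the lists not yet given, sulfur genes were higher at their WT maximum in 4P in 8 of 8 cases, ribosome biogenesis genes in 7 of 9 and phosphate genes in 3 of 7.

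Reading frames of the Y' element, a repeat near chromosome ends that encodes helicase-like proteins, are a repeated family among the members. Of 37 frames in the Y' list 25 were members. The rest have a symbol (the YRF1 genes) or lie below the range. All 25 had a positive 4P change, 18 (72.0%) passed, and 20 (80.0%) changed over time in 4P, beside 34.8% and 40.3% of all genes. Frames of a repeat can be close copies whose probes bind each other's RNA, though no probe sequences were compared here. The members therefore cannot be counted as separate observations, and the level of any single copy is uncertain. Not all of them read alike, with 1.36 in YLR464W and -0.35 in YIL177C on the WT array at 0 min of replicate 1.

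**Figure D5:**
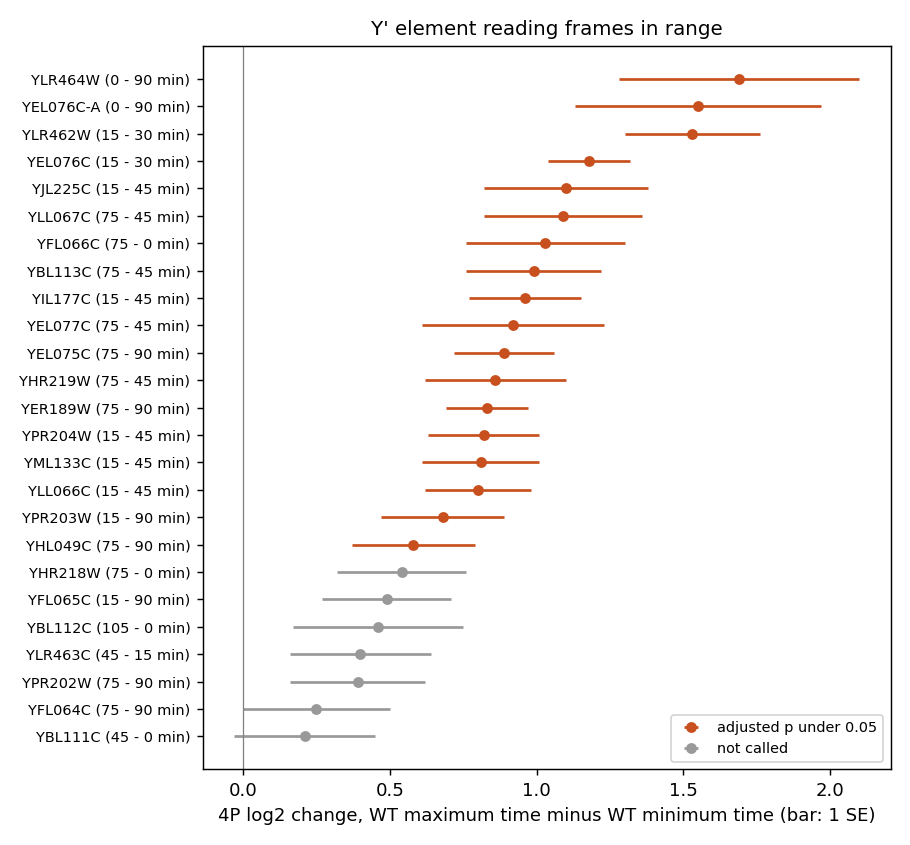
Change in 4P (horizontal axis, log2) of the 25 Y' frames between the times of the WT maximum and minimum given beside each name, with bars of 1 SE and orange for an adjusted p under 0.05. Values run from 0.21 in YBL111C to 1.69 in YLR464W, and the 7 grey frames did not pass.

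Most Y' maxima fell at 15 or 75 min in WT. YBL111C and YLR463C had theirs at 45 min and YBL112C at 105 min, and none of these 3 passed. YLR464W and YEL076C-A had theirs at 0 min, where the replicates were far apart. In 4P YLR464W read 1.85 and -0.00 at 0 min and -0.49 and -1.05 at 90 min, a change of 1.69 ± 0.41 (adjusted p = 0.00241). Without the 4P array at 0 min of replicate 1 it was 0.77 (adjusted p = 0.116). YEL076C-A read 1.79 and -0.03, then -0.32 and -1.01, a change of 1.55 ± 0.42 (adjusted p = 0.00599) that was 0.63 without the same array (adjusted p = 0.225). YLR462W, with a WT maximum at 15 min, changed by 1.53 ± 0.23 (adjusted p = 1.57e-05), and by 1.41 to 1.66 without single arrays. YIL177C, with a WT maximum at 15 min, changed by 0.96 ± 0.19 in 4P (adjusted p = 0.000356). Among those of 75 min, YBL113C changed by 0.99 ± 0.23 (adjusted p = 0.00186) and YFL066C by 1.03 ± 0.27 (adjusted p = 0.00432), and in both the 4P maximum was at 75 min as well. The call of YFL066C was lost without the 4P array at 75 min of replicate 2 (adjusted p = 0.0638). Without single arrays, 13 to 20 of the 25 frames passed. Members outside the family were higher at the WT maximum in 4P in 146 of 379 cases (38.5%).

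The choice of members did not use the mean over the whole course, but it used the WT arrays that enter this mean. A WT value that helped to choose a frame therefore also counts in its difference between 4P and WT. For this reason the shares of members lower or higher in 4P, given next, cannot be told apart from an effect of the choice. Of the 404 frames 393 had a value on all 32 arrays, and limma on the 4 course means called 0 of them different between 4P and WT, beside 0.0175% of all 5729 genes called higher and 0.0% called lower. The lowest adjusted p was 0.261. At an unadjusted p under 0.05, 40 frames (10.2%) were lower in 4P, beside 5.38% of all genes, and 10 (2.54%) were higher, beside 5.04%. The median difference was -0.06 over the members, against -0.003 over all genes, and 64.4% of members lay below 0, beside 50.6% of all genes. Of the 5 slides, 4 held arrays of 1 genotype only, so for these slide and genotype cannot be told apart. The replicate number is also the dye orientation, and with it as a block 47 members were called. Of these 38 (9.67%) were lower in 4P, beside 6.02% of all genes, and 9 (2.29%) were higher, beside 5.39%.

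YBL081W and YLR232W had the lowest course differences, -0.74 ± 0.18 and -0.72 ± 0.15 (unadjusted p = 0.00583 and 0.00215). YLR232W ranged from -0.36 to 1.1 over WT arrays with a median of 0.42, and from -0.83 to -0.08 over 4P arrays with a median of -0.37. Its 4P change between the WT extremes was 0.01 ± 0.32 (adjusted p = 0.979). The highest differences were 0.71 ± 0.16 for YBR184W and 0.47 ± 0.16 for YIL092W (unadjusted p = 0.00418 and 0.0254). YBR184W had medians of 0.48 in WT and 1.19 in 4P, and it read 1.15 and 1.70 at 0 min in 4P, where WT read -0.51 and 0.00. Its 4P change of 0.81 ± 0.31 between 30 and 60 min passed (adjusted p = 0.0437), and was lost without any 1 of the WT arrays at 30 min, the 4P arrays at 30, 45 and 75 min, or the 4P array at 60 min of replicate 1, with an adjusted p of up to 0.333. YIL092W swung between the 4P replicates, at 1.32 and 0.55 at 0 min and 1.21 and 0.03 at 90 min.

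The 3 frames that went most against the WT order in 4P all had a WT maximum at 75 min and a minimum at 90 min in the deposited values. YGR051C read -0.30 and -0.16 at 75 min and 0.13 and 0.14 at 90 min in 4P, a change of -0.36 ± 0.14 (adjusted p = 0.0428). The call was lost without any 1 of 11 arrays, namely WT at 60 or 90 min, 4P at 45, 75 or 90 min (either replicate) or 4P at 15 min of replicate 2, with an adjusted p of up to 0.21. In WT the same times read 0.02 and 0.05, then 0.20 and 0.23, after loess, so WT also was lower at 75 min there. In the deposited values the WT arrays at 90 min read 0.18 and -1.15. YPR063C (-0.39 ± 0.23, adjusted p = 0.205) and YBR032W (-0.36 ± 0.17, adjusted p = 0.101) did not pass.

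Some members ran with the named gene beside them. Pairs were formed between a frame and a named gene of the same or next systematic number. Over the 16 4P arrays, 32 of 313 such pairs of unlisted members (10.2%) correlated above 0.8. The share was 11.8% where the strand letters were opposite and 7.3% where they were the same. It was 3.0% for listed members, 3.3% for unlisted frames below the range and 2.5% for named genes in range. These shares are a description without a test, since all pairs share the same arrays and a wider course gives a higher r. Whether such a probe reads its own frame or RNA of the neighbour was not tested. Nor was it checked which frames overlap their neighbour.

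The frames next to the limit are given as a description. Just inside, YER010C, YDR541C and YKL118W spanned 1.00 in the deposited WT values, and their 4P changes were 0.87 ± 0.22, 0.07 ± 0.17 and 0.20 ± 0.13. Just outside, YLR334C spanned just under 1.00, and YIL108W and YNR077C 0.99. Their 4P changes were -0.02, 0.09 and 0.78.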

How the data were processed

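Agilent 2-colour arrays were used with 1 dye orientation per replicate. The submitters' processing notes name Agilent Feature Extraction 10.7.1.1 as the scanner software. Its files hold, per the file headers, the median intensity of each spot and its background, and the log10 of red over green as a ratio. The deposited table of the series holds log2 values, with column medians from -0.04 to 0.02, which followed the scanner's ratio at r = 0.961 to 0.999. How the authors got from one to the other was not given in the sources used. The table chose the members.

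All other values were computed from the intensities with limma 3.58.1 in R 4.3.3, with normexp background correction (offset 50) and loess within each array. Outlier spots were left out, spots and probes averaged, ratios turned to synchronised sample over reference, and 6205 genes kept with a probe well above background on both arrays of at least 1 group. Group means were fitted over 32 arrays, and limma's moderated tests were adjusted by Benjamini-Hochberg over all genes tested. Times of the WT extremes came from the deposited table. Course means had 1 value for each of 4 courses. The arithmetic was tested on simulated data. The number of arrays limits the precision.

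The members and lists were chosen with earlier results of these data known. Frames described in full are the 3 with the widest WT span at each time, the extremes of the 4P change and of the course mean, and those next to the limit. Neighbours and other frames named for a large 4P change were picked after their values were seen. A symbol was taken from R64 alone. A search of promoter motifs was planned and not run, and no coordinates are given because the array's annotation uses an older build. The name of a slide is the slide number in the scanner files, numbered 1 to 5. The result of 1 gene list is not reported here.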

Additional observations from a re-analysis of the deposited data

Results flagged for a closer look

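Q0010, a mitochondrial frame with its WT maximum at 105 min and minimum at 90 min, was singled out because its 4P changes between these times were below 0 and its WT changes above 0 in each replicate. After loess it changed by 0.06 and 0.57 in WT and by -0.00 and -0.15 in 4P, a mean 4P change of -0.07. In 4P replicate 1 the level was -1.15 at both times, so the opposite direction rests on replicate 2 alone. The difference between the strains was not tested, since the WT arrays chose the frame. The same signs were found in 24 members (5.97% of those with all values), beside 4.94% of all genes. In the deposited values its WT arrays at 90 min read -0.85 and -3.54.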

How the results depend on the processing

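The number of frames that changed over time in 4P was 179 and ran from 127 (scanner log ratio) to 229 (replicate block) over the alternatives, with 212 with slide as a block. The number higher at the WT maximum was 164 and ran from 135 (scanner log ratio) to 189 (replicate block), with 188 with slide as a block. Leaving out 1 array at a time gave 148 to 193 and 139 to 173. Without both arrays of slide 1, a choice made after seeing the data, they were 167 and 169. The 1 frame lower at the WT maximum, YGR051C, became 0 with the scanner log ratio and with the deposited table, and 0 to 1 when an array was left out. The 0 calls on the course mean became 47 with a replicate block and 101 in a fit over 32 arrays, which treats times as replicates. The fit over 32 arrays gave 0 calls with slide as a block. Most slides held arrays of 1 genotype only, so that 0 cannot tell slide from genotype. Same-numbered WT and 4P arrays share a dye orientation, and their deviations correlated at r = 0.05 to 0.37 by time, above 0 at every time. The main fit did not take the numbers as pairs. The count of course mean calls depended on that choice, at 0 without a replicate block and 47 with it.

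The 404 members became 163 unnamed frames in range with the loess values, 273 at a span of 1.2 and 380 or 562 without 1 WT replicate. Of 34 frames described in full, 25 kept their direction and their side of the threshold under all alternatives tried. Calls were lost for YBR184W, YGR051C and YHL049C. The sign of the 4P change turned in 6 frames that were not called. Without single arrays it ran from -0.32 to 0.68 in YLR379W and from -0.21 to 0.23 in YLR232W, with the arrays at 15 min of 4P replicates 2 and 1 giving the ends. It became 0.06 in Q0010 without the 4P array at 105 min of replicate 2, and -0.07 in YLR232W without that at 45 min of replicate 1. It became -0.01 in YBL081W without that at 30 min of replicate 1, -0.22 or 0.39 in YBL081W without that at 90 min of replicate 2 or 1, -0.01 or 0.15 in YDR541C without that at 75 min of replicate 1 or 2, and -0.07 in YIL092W with the deposited table. The cause of these moves was not tested. With 2 arrays per group and many dim frames, changes near the size of their error cannot be resolved here.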
